A study of Mus musculus with 6 samples.

Results

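The carnitine shuttle was described here through 8 genes, Slc22a5, Cpt1a, Cpt1b, Cpt1c, Slc25a20, Cpt2, Crat and Crot, in mouse dorsal skin treated with vehicle or rebamipide. They were chosen by name from the 21959 genes of the deposited table, and earlier results of the same libraries were known when the list was made. The differences between vehicle and rebamipide of these 8 genes are therefore a description. Their calls are counted beside the share of all genes called, with no p-value printed for any of the 8, and nothing is concluded from these calls.

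Long-chain fatty acids enter mitochondria as esters of carnitine. Carnitine is taken up at the plasma membrane, a carnitine palmitoyltransferase 1 (CPT1) enzyme in the outer mitochondrial membrane transfers the acyl group from CoA to carnitine, the translocase exchanges acylcarnitine for free carnitine across the inner membrane, and CPT2 returns the acyl group to CoA for beta-oxidation. CPT1 is inhibited by malonyl-CoA and is regarded as the control point of the pathway. CPT1A is the form of liver and most other tissues, CPT1B that of heart, skeletal muscle and brown fat, and CPT1C a form of neurons that resides in the endoplasmic reticulum.

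The libraries came from full-thickness dorsal skin of male C57BL/6 mice whose backs were shaved at 7 weeks of age. The study describes these mice as being in telogen, the resting phase of the hair cycle. The vehicle group (n = 3 mice) received dipropylene glycol in water, and the rebamipide group (n = 3 mice) received 3% rebamipide, an amino acid derivative used as a mucosal protective drug. Both were applied to the skin daily for 7 days, after which poly-A RNA was sequenced. Bulk skin mixes epidermis, hair follicles, dermis, fat and underlying muscle, so that more cells of a type cannot be told apart from more RNA per cell.

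The depth was 38676018 to 39915276 counts per vehicle library and 32709801 to 34706852 counts per rebamipide library. The make-up of the libraries differed widely within and between groups. In the third rebamipide library, which was labelled as skin like the others, the mean log2 CPM (CPM, read counts scaled to a common library size with TMM normalization) of 5 basal keratinocyte markers was -0.97, against 6.68 to 9.06 in the other libraries. Among these markers Krt14 and Krt15 had 0 counts there, whereas Itga6 was at 129 CPM, against 108 and 151 in the other rebamipide libraries. That library also held 0 counts for 7 of 7 markers of growing hair follicles. In the vehicle libraries the same markers had a mean log2 CPM of 9.94, 8.55 and 3.47, although the study describes the skin as resting. The hair cycle stage of each library was not tested. Brown adipocyte markers ranged from 1.28 to 2.43 mean log2 CPM in vehicle skin and from 6.43 to 7.67 after rebamipide, and Ucp1, the uncoupling protein that defines brown fat, had 0 counts in all 3 vehicle libraries and 81048, 220449 and 150572 counts in the rebamipide libraries. Although all 6 libraries carry the same tissue label, their cell make-up differed together with the treatment, and the 2 cannot be told apart in any difference reported here. For the 8 genes and for the ratio of Cpt1a to Cpt1b, values without the third rebamipide library are given as well.

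Of the 8 carnitine shuttle genes, 5 were higher after rebamipide (Cpt1b, Slc25a20, Cpt2, Slc22a5 and Crat) at an adjusted p-value under 0.05 in edgeR's quasi-likelihood test over 14875 genes, where 14.1% of all genes were called higher. The other 3, Cpt1a, Cpt1c and Crot, had log2 fold changes below 0 and were not called lower, as 6.51% of all genes were. In normalized CPM the groups did not overlap for 6 of the 8 genes, 5 of them higher and 1 lower, against 24.5% of all genes higher and 24% lower without overlap. The differences of the called genes ran from 5.92-fold for Crat to 53.3-fold for Cpt1b. The median log2 fold change was 2.58 over the 8 genes and -0.175 over all genes tested. All 8 genes passed the expression filter. Cpt1b did so through its rebamipide libraries alone and so had to differ, and where every library had to hold 10 counts or more it was not tested and 4 of the other 7 genes were called higher. With scaling by total counts in place of TMM, the median of all genes moved to -0.778 and the calls over all genes went from 2093 higher and 968 lower to 1258 higher and 3752 lower, while the 8 genes kept their directions.

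**Figure D1:**
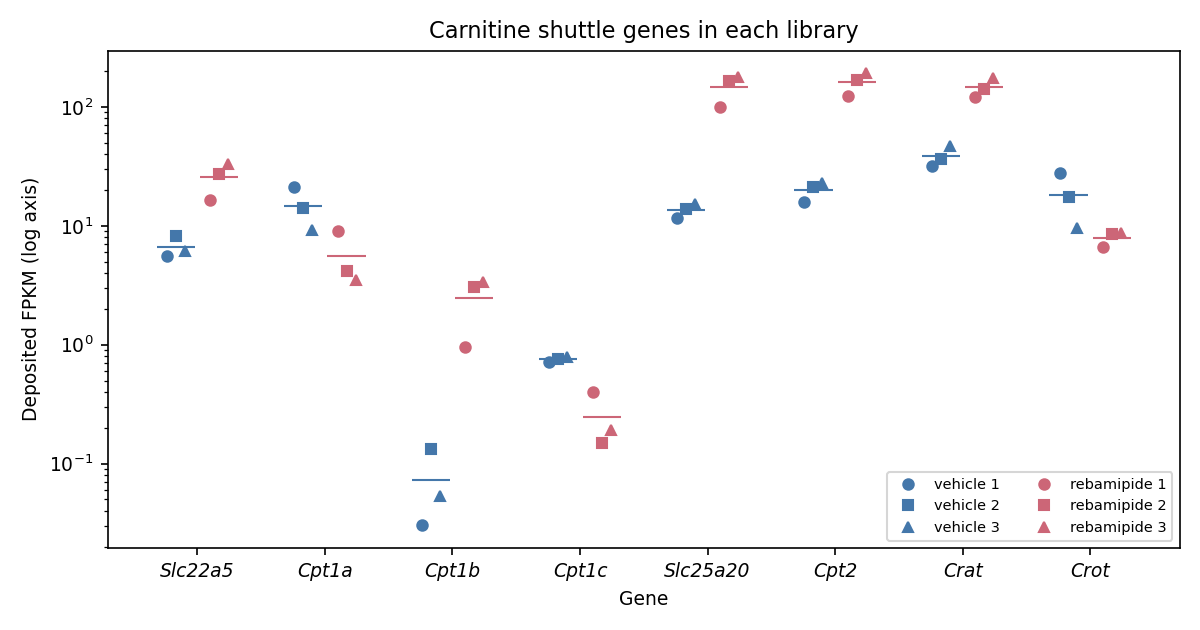
Deposited FPKM of the 8 carnitine shuttle genes in each library on a log axis, with a point per library, vehicle in blue and rebamipide in red, and a line at the mean of each group (n = 3). Slc25a20 lies between 11.6 and 15.2 in vehicle and between 99.6 and 177 in rebamipide libraries, whereas Cpt1a and Crot lie lower in the rebamipide libraries.

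The calls of the 5 genes in edgeR hung on the second library of each group. They were present without any 1 of the other 4 libraries. Without the third rebamipide library, where 1012 of 15327 genes were called higher, the log2 fold changes were 5.43 for Cpt1b, 3.92 for Slc25a20, 3.49 for Cpt2, 2.37 for Crat and 2.34 for Slc22a5. Without the second vehicle library or without the second rebamipide library edgeR called 0 of the 8 genes, although 5 of them had an unadjusted p-value under 0.05 in each case and DESeq2 called 5 in both. Over all genes edgeR then called 0 and 1 higher. The fold changes stayed of similar size, with log2 values of 6.46 for Cpt1b, 4.07 for Slc25a20, 3.67 for Cpt2, 2.73 for Slc22a5 and 2.49 for Crat without the second vehicle library, and 5.52, 3.97, 3.59, 2.51 and 2.55 in the same order without the second rebamipide library. With all libraries DESeq2 called the same 5 genes higher, as it did 16.2% of all genes, and so did limma-voom, which called 14.4% of all genes higher and 6.94% lower.

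The start regions of 3 of the genes are shown because Cpt2 and Slc25a20, the consecutive inner membrane steps, were both called higher while Cpt1a, the step before them, was not. The sequences are RefSeq windows of the GRCm38.p6 build, from 250 bases before to 50 bases after the transcription start, 5′ to 3′ on the gene's strand. They lie at chr19:3323051-3323350 on the plus strand for Cpt1a, chr4:107923540-107923839 on the minus strand for Cpt2 and chr9:108661886-108662185 on the plus strand for Slc25a20. Capitals mark matches on either strand to the nuclear receptor half-site AGGTCA, the ETS-type element CCGGAAGT and the CCAAT box.
Cpt1a: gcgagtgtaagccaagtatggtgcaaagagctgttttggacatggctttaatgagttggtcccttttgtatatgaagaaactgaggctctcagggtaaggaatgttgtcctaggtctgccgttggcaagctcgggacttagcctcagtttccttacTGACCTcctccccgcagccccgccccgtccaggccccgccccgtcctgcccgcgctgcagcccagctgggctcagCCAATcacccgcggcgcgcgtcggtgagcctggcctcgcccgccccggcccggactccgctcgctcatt
Cpt2: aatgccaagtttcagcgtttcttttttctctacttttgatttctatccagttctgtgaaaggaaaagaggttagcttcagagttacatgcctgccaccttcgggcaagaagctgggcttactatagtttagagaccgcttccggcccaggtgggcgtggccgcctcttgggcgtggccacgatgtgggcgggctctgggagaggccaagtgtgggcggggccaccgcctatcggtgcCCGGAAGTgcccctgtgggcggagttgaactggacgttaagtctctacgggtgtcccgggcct
Slc25a20: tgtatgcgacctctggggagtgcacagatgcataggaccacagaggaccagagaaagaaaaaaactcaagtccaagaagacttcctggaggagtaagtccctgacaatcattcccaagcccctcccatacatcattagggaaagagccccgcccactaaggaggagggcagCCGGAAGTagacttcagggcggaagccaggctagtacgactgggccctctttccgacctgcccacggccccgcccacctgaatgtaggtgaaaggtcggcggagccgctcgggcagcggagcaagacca
The windows of Cpt2 and Slc25a20 each held 1 match to CCGGAAGT, as did 3.9% of 32851 RefSeq windows, and no other of the 6 carnitine shuttle genes with a window held it. The Cpt1a window held 1 match to AGGTCA, present in 16.3% of windows, and 1 to CCAAT, present in 37.4%. All 3 windows held 3 matches to the GC box GGGCGG, present in 35.7% of windows and not capitalised, and no marked match overlapped another. The motifs were picked after the sequences had been read, and a match describes letters in the window, not binding. Cpt1b and Crat had no window.

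Slc22a5 encodes OCTN2, the sodium-dependent carnitine transporter of the plasma membrane, and lies at 11:53755368-53782486 on the minus strand (GRCm39 for all gene positions). Its FPKM was 5.61, 8.14 and 6.20 in the vehicle libraries and 16.4, 27.3 and 32.8 in the rebamipide libraries. The 2 groups did not overlap. From the counts, the log2 fold change was 2.60 ± 0.39 (SE, n = 3 per group), a 6.06-fold difference in normalized counts.

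Cpt1a (19:3372334-3435733, plus strand) is the CPT1 gene with the highest level in vehicle skin. Its FPKM was 21.1, 14.0 and 9.18 in the vehicle libraries and 9.01, 4.14 and 3.50 in the rebamipide libraries. On the FPKM scale the lowest vehicle library was just above the highest rebamipide library. After TMM normalization the groups overlapped, at 58.0 to 126 CPM in vehicle and 35.4 to 74.2 CPM in rebamipide libraries. The log2 fold change was -0.83 ± 0.40 (SE), and -0.62 without the third rebamipide library.

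Cpt1b (15:89300608-89310066, minus strand) was covered by few reads in vehicle skin. The deposited counts were 4, 18 and 7 reads in the vehicle libraries and 105, 356 and 392 reads in the rebamipide libraries, or 0.0303, 0.134 and 0.0537 FPKM against 0.952, 3.07 and 3.35 FPKM. The groups lay far apart, and the first rebamipide library was the lowest of its group. Its log2 fold change, 5.74 ± 0.88 (SE), was the largest of the 8 genes and the one with the largest error. On log2(FPKM + 1) it was 1.60, because the vehicle values are small beside the pseudocount.

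Cpt1c (7:44608796-44624275, minus strand) was low in all libraries. Its FPKM was 0.721, 0.760 and 0.784 in the vehicle libraries and 0.398, 0.150 and 0.190 in the rebamipide libraries. The groups did not overlap in FPKM or in normalized CPM. Its fitted log2 fold change was -1.05 ± 0.40 (SE). Cpt1c passed the thresholds of the study's methods, an unadjusted p-value under 0.05 with a log2 fold change beyond 1 in either direction, which 14.5% of all genes passed as lower and 14.3% as higher, and it missed them when any 1 library other than the first of rebamipide was left out (-0.94 without the third of rebamipide), with a replicate block, with the muscle covariate and on log2(FPKM + 1). At an adjusted p-value under 0.05 DESeq2 called it lower, as it did 15.5% of its genes, and edgeR did not. The DESeq2 call was lost without any 1 library other than the first rebamipide library, while edgeR called Cpt1c without the first rebamipide library and with total counts alone.

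Slc25a20 encodes the carnitine-acylcarnitine translocase of the inner membrane and lies at 9:108539287-108561840 on the plus strand. Its FPKM was 11.6, 13.8 and 15.2 in the vehicle libraries and 99.6, 166 and 177 in the rebamipide libraries. The lowest rebamipide library was several times above the highest vehicle library. Slc25a20 thus had a log2 fold change of 4.10 ± 0.40 (SE), a 17.2-fold difference.

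Cpt2 (4:107761178-107780807, minus strand) encodes the inner membrane transferase. Its FPKM was 15.8, 21.3 and 22.7 in the vehicle libraries and 124, 169 and 191 in the rebamipide libraries, again without overlap. The log2 fold change was 3.66 ± 0.35 (SE), or 12.7-fold. Cpt2 had the highest FPKM of the 8 genes in all 3 rebamipide libraries, and rank 4, 2 and 2 in the vehicle libraries. The FPKM ratio of Slc25a20 to Cpt2 was 0.731, 0.648 and 0.672 in the vehicle libraries and 0.803, 0.980 and 0.926 in the rebamipide libraries, so that the levels of the 2 inner membrane steps stayed near each other in every library.

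Crat encodes carnitine acetyltransferase, which buffers acetyl-CoA by passing short acyl groups to carnitine, and lies at 2:30290483-30305825 on the minus strand. Its FPKM was 31.9, 36.3 and 46.8 in the vehicle libraries and 120, 141 and 176 in the rebamipide libraries. Crat had the highest FPKM of the 8 genes in all 3 vehicle libraries. The log2 fold change was 2.56 ± 0.33 (SE), smaller than that of Cpt2, and the Crat to Cpt2 ratio of FPKM went from 2.02, 1.71 and 2.06 to 0.968, 0.834 and 0.920.

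Crot (5:9016033-9047324, minus strand) encodes the peroxisomal carnitine octanoyltransferase, which hands medium-chain products of peroxisomal oxidation to carnitine. Its FPKM was 27.9, 17.5 and 9.51 in the vehicle libraries and 6.64, 8.50 and 8.74 in the rebamipide libraries. Vehicle libraries spread more widely than rebamipide libraries, and after TMM normalization the groups overlapped, at 42.9 to 119 CPM and 39.0 to 63.2 CPM. Its fitted log2 fold change was -0.55 ± 0.40 (SE), and -0.65 without the third rebamipide library. The FPKM ratio of the acetyl to the octanoyl transferase, Crat to Crot, was 1.14, 2.07 and 4.92 in the vehicle libraries and 18.1, 16.6 and 20.1 in the rebamipide libraries.

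**Figure D2:**
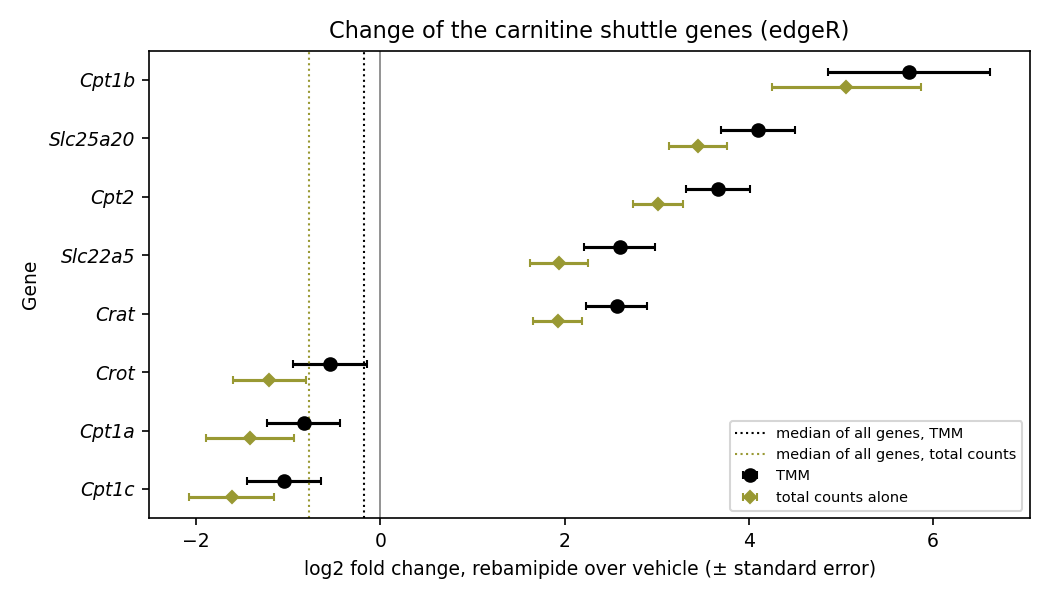
Log2 fold change (rebamipide over vehicle) of the 8 genes from edgeR with its standard error, n = 3 per group, with TMM normalization (black circles) and with total counts alone (olive diamonds), and dotted lines at the median of all genes under each scaling. Cpt1b is farthest to the right at 5.74 and Cpt1c farthest to the left at -1.05 under TMM, and total counts alone shift all 8 genes to lower values.

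The summed FPKM of the 8 genes was 115, 112 and 110 in the vehicle libraries and 377, 519 and 593 in the rebamipide libraries. Within that sum Cpt1a took 18.4%, 12.5% and 8.31% in the vehicle libraries and 2.39%, 0.798% and 0.590% in the rebamipide libraries. Cpt2 took 13.8%, 19.0% and 20.5% with vehicle and 32.3% to 32.9% with rebamipide. The ratio of Cpt2 to Cpt1a, the matrix-side over the outer membrane transferase, went from 0.751, 1.52 and 2.47 to 13.8, 40.9 and 54.7.

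The ratio of Cpt1a to Cpt1b compares the CPT1 forms within a library, so that library scaling cancels. From the deposited FPKM it was 694, 105 and 171 in the vehicle libraries and 9.47, 1.35 and 1.04 in the rebamipide libraries. The groups did not overlap, and the second and the third rebamipide library were close to equality. The mean log2 ratio was 7.86 ± 1.42 (SD, n = 3) in the vehicle group and 1.25 ± 1.74 (SD, n = 3) in the rebamipide group, a difference of -6.61 on the log2 scale. With each library left out in turn the difference was -7.61 to -5.82, and -6.02 without the third rebamipide library. With 0.1 added to the FPKM of both genes in all libraries it was -5.19. The vehicle ratios rest on 4 to 18 Cpt1b reads per library.

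As shares of the summed FPKM of the 3 CPT1 genes, Cpt1a made up 96.6%, 94.0% and 91.6% in the vehicle libraries and 87.0%, 56.2% and 49.7% in the rebamipide libraries. Cpt1b made up 0.139%, 0.896% and 0.536% in the vehicle libraries and 9.19%, 41.7% and 47.6% in the rebamipide libraries. Cpt1c stayed a minor form, at 3.31% to 7.83% of the sum with vehicle and 2.05% to 3.84% with rebamipide. Summed over the 3 genes, CPT1 FPKM was 21.8, 14.9 and 10.02 in the vehicle libraries and 10.4, 7.36 and 7.04 in the rebamipide libraries, a lower mean with rebamipide that turns to a higher one when Cpt1b is divided by another length. The sums also depend on the scaling, as FPKM uses library totals without TMM factors. For Cpt1a alone, the log2 fold change was -1.41 with total counts and -0.83 with TMM. The mean Cpt1b share was 32.3 percentage points higher with rebamipide, or 24.9 without the third rebamipide library. These shares depend on how Cpt1b was counted.

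The deposited counts of Cpt1b appear to cover only part of the gene. A readthrough gene on the same strand, Gm44502 (15:89300608-89313899), which joins Cpt1b to its neighbour Chkb, spans all 9459 bases of Cpt1b. It had 0 counts in all 6 libraries. In the GENCODE M21 annotation, whose exonic lengths equal those of the table for 21261 of 21851 genes matched by identifier, 2744 of the 3372 exonic bases of Cpt1b are shared with other genes of its strand and 628 are not. The full-length transcript Cpt1b-201 has 151 of 2895 bases outside Gm44502, and the short transcript Cpt1b-203 has 448 of 629.

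Counts over the whole table show how such bases were treated. All 132 genes without an exonic base of their own on their strand had 0 counts in every library, as had 24 of 24 further genes that are wholly covered when both strands are counted, compared with 20.3% of 17663 genes that overlap no other gene. From these zeros, reads on bases shared by 2 genes appear not to have been counted for either gene, and strand appears not to have been used. The counting mode is not given in the sources used here, and the annotation compared is of another build. The FPKM of Cpt1b divides by the whole length. The other 7 carnitine shuttle genes share no exonic base with a gene of their strand, and Crat shares 59 bases with Dolpp1 on the opposite strand. The coding sequences of the CPT1 genes are 62.8% to 67.4% identical, with identical runs of at most 23 bases.

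With the Cpt1b reads divided by the 628 bases outside other genes of its strand, the ratio of Cpt1a to Cpt1b became 129, 19.5 and 31.8 in the vehicle libraries and 1.76, 0.251 and 0.195 in the rebamipide libraries. The difference between groups on the log2 scale is the same by construction, while the second and the third rebamipide library then held more Cpt1b than Cpt1a. Cpt1b would make up 0.742% to 4.63% of the CPT1 sum with vehicle and 35.2%, 79.4% and 83.0% with rebamipide. The CPT1 sum would be 21.9, 15.5 and 10.3 in the vehicle libraries and 14.5, 20.8 and 21.7 in the rebamipide libraries. The groups overlap under both lengths, and the mean goes from 15.9 to 19.0, whereas it went from 15.6 to 8.25 as deposited. This length was chosen after the data were seen, and it assumes even coverage of these bases, which was not tested. Most of them belong to Cpt1b-203 and few to the full-length Cpt1b-201, so the levels of Cpt1b set against Cpt1a depend on which transcript the reads came from.

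**Figure D3:**
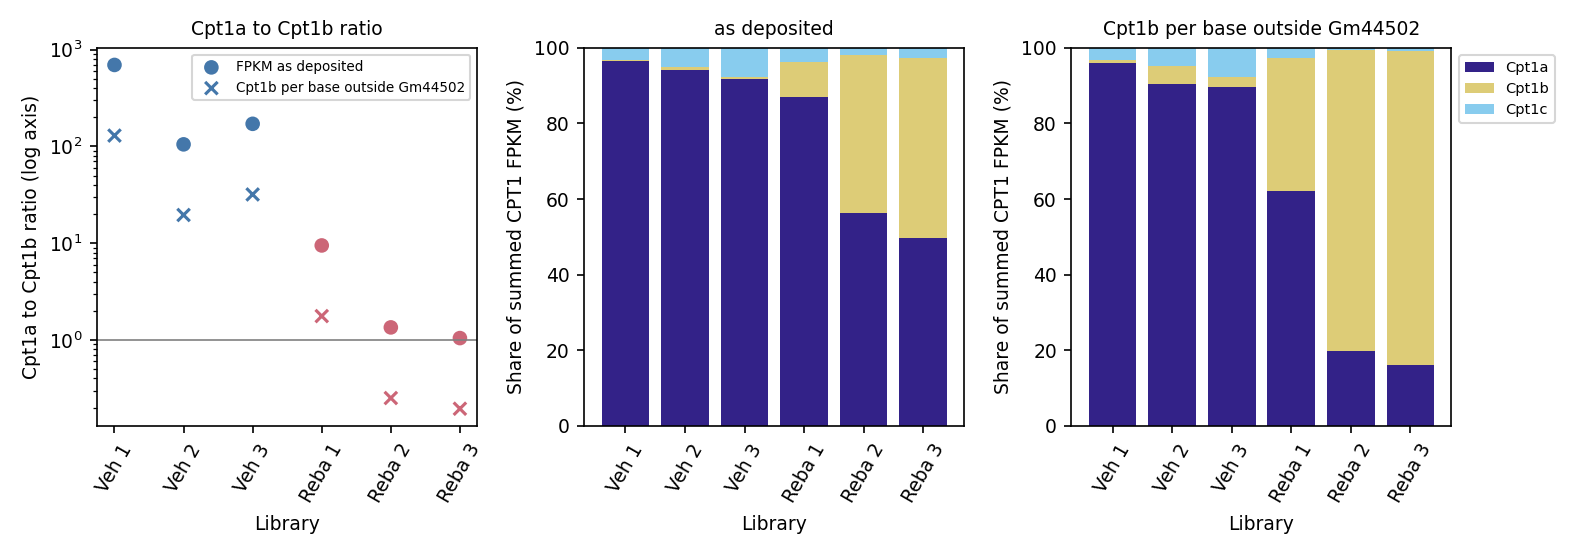
Left, ratio of Cpt1a to Cpt1b in each library on a log axis, from deposited FPKM (circles) and with Cpt1b per base outside Gm44502 (crosses), vehicle in blue and rebamipide in red. Middle and right, share of Cpt1a, Cpt1b and Cpt1c in their summed FPKM under both lengths, where Cpt1b reaches 47.6% as deposited and 83.0% per base outside Gm44502 in the third rebamipide library.

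The steps around the shuttle were read from 6 gene lists with 59 genes tested, of which edgeR called 35 higher and 1 lower by its adjusted p-value, where 14.1% of all genes were higher and 6.51% lower. Without the third rebamipide library 30 were higher, as were 1012 of 15327 genes over the whole table. Without the second vehicle or the second rebamipide library edgeR called 0, with 39 and 37 of the 59 at an unadjusted p-value under 0.05, while DESeq2 called 40 and 34 higher, and 2662 of 17670 and 1952 of 17765 genes over the whole table. Of 16 genes of mitochondrial beta-oxidation, 15 were higher, with a median log2 fold change of 3.59. They include Acadvl, the very-long-chain acyl-CoA dehydrogenase (4.45 ± 0.37, SE), and Hadhb, the beta subunit of the trifunctional protein (4.46 ± 0.42), and both sit beside Slc25a20 and Cpt2 in size. Acad9, which also serves as a complex I assembly factor, was not called (-0.35 ± 0.16).

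Of 13 peroxisomal genes 10 were called higher, against 14.1% of all genes, with a median log2 fold change of 1.73. Ehhadh, the bifunctional enzyme, had a log2 fold change of 4.37 ± 0.50 (SE). Crot, which exports products of this pathway, was not among the genes called.

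Upstream of CPT1, Acsl1, the long-chain acyl-CoA synthetase of adipocytes, liver and muscle, rose by 3.61 ± 0.56 (log2, SE, adjusted p = 0.013 in edgeR). Acsl4, which prefers arachidonate, fell by 1.35 ± 0.33 (log2 fold change, SE, adjusted p = 0.038), a call that was lost without the second or the third library of either group. The other 3 synthetases were not called. Of 6 carnitine supply genes tested only Aldh9a1, an aldehyde dehydrogenase of carnitine synthesis, was called (1.59 ± 0.31). Over all genes 14.1% were called higher and 6.51% lower. Bbox1, which makes the last step of carnitine synthesis, had 52.4 ± 29.7 CPM (SD, n = 3) in vehicle and 9.08 ± 8.28 CPM in rebamipide libraries and was not called. Slc22a16, a carnitine transporter, had 0 counts in all libraries.

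Malonyl-CoA, the inhibitor of CPT1, is made by the acetyl-CoA carboxylases and removed by malonyl-CoA decarboxylase. Acaca had a log2 fold change of 2.82 ± 0.38 (SE) and Acacb, the form bound to the outer mitochondrial membrane, of 3.21 ± 0.59. Mlycd, the decarboxylase, had 2.69 ± 0.31, so that the genes for synthesis and for removal were higher together. Of the 7 AMPK subunit genes, whose kinase phosphorylates the carboxylases, Prkag2 was called (2.02 ± 0.31) and the other 6 ranged from -0.82 to 0.62 without a call. A call as higher was made for 14.1% of all genes.

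Among 9 regulators known to act on CPT1 genes, 4 were called higher, against 14.1% of all genes. Ppara, the fatty acid receptor that drives oxidation genes, went from 6.25 ± 2.19 CPM (SD, n = 3) to 226 ± 83.5 CPM, a log2 fold change of 5.17 ± 0.48 (SE). Ppargc1b (3.72 ± 0.35), a coactivator, Pparg (2.73 ± 0.51), the receptor of adipocyte differentiation, and Esrra (2.27 ± 0.28), an orphan receptor of mitochondrial genes, were also called. Ppargc1a, at 2.30 ± 0.68, was not called (adjusted p = 0.059 in edgeR).

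**Figure D4:**
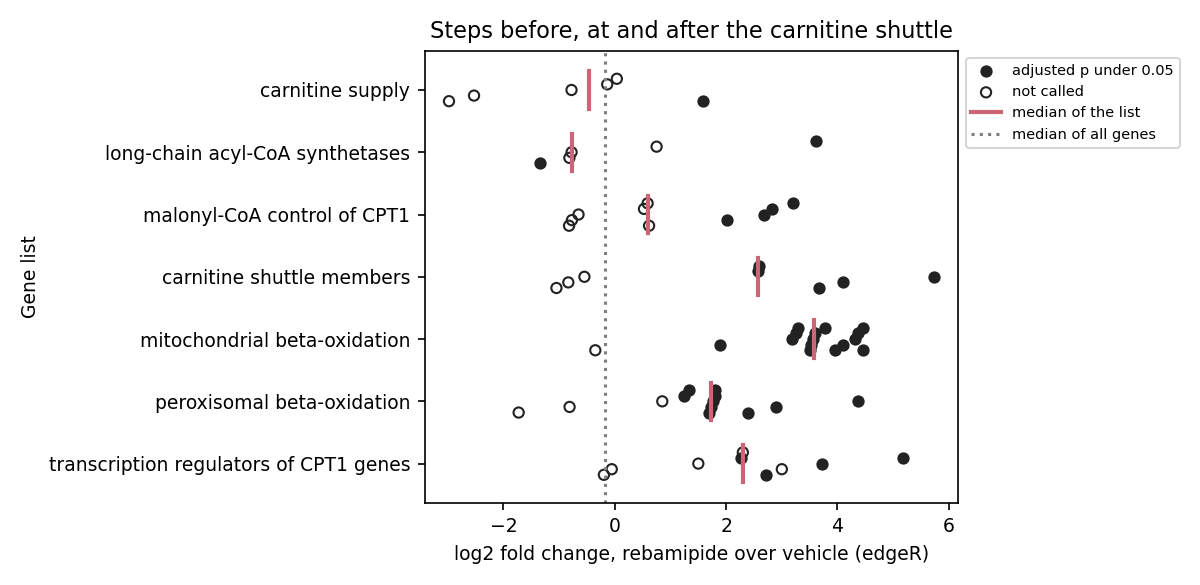
Log2 fold change (rebamipide over vehicle, edgeR, n = 3 per group) of each gene tested in the 6 lists and of the 8 carnitine shuttle genes, with filled points for an adjusted p-value under 0.05, red bars at the median of each list and a dotted line at the median of all genes, -0.175. The mitochondrial beta-oxidation genes cluster around 3.59, with Acad9 alone below 0.

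CPT1B is a muscle and brown fat enzyme, so markers of these tissues were set beside it. The mean log2 CPM of 10 fast skeletal muscle markers was 8.64, 10.83 and 10.94 in the vehicle libraries and 11.46, 9.32 and 4.35 in the rebamipide libraries, with a smallest adjusted p of 0.731 in edgeR (Myh1) among the genes named from that list. The third rebamipide library had the lowest fast muscle level and the highest Cpt1b level. With the fast muscle level as a covariate the log2 fold change of Cpt1b was 5.32. Slow skeletal muscle markers ranged from -1.64 to 0.10 mean log2 CPM with vehicle and stood at 5.60, 4.46 and 0.11 with rebamipide. Of these 5 markers, Myh7, Myl2 and Myl3 were called higher, against 14.1% of all genes, but with 2 to 26 counts per vehicle library they passed the expression filter through the rebamipide libraries alone. The part of muscle in the Cpt1b values was not tested.

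Of 8 brown adipocyte markers edgeR called 5 higher, against 14.1% of all genes, and Ucp1 and Otop1 among them passed the expression filter through the rebamipide libraries alone. Elovl3, a fatty acid elongase, went the other way without overlap (-1.45 ± 0.42, SE) and was not called, and Zic1 was at 0.09. The brown adipocyte list was lowest in the first rebamipide library (6.43, against 7.67 and 7.38 in the others), as were Cpt1b, Cpt2, Slc25a20, Crat and Slc22a5. Of 10 general adipocyte markers 6 were called higher, against the same 14.1%, while the hormones Lep (-0.53) and Retn (-0.23) were not called. The list went from a mean log2 CPM of 7.35 to 8.77 with vehicle to 9.75, 10.01 and 10.27 with rebamipide. Of 6 endothelial markers 4 were called higher, beside 14.1% of all genes, at 4.57 to 5.79 mean log2 CPM with vehicle and 6.90, 7.22 and 7.38 with rebamipide, while fibroblast markers (9.80 to 10.66 and 7.58 to 10.07) and leukocyte markers (5.16 to 6.57 and 4.21 to 6.23) overlapped between groups. All marker calls share the limit that edgeR called 0 or 1 genes higher over the whole table without the second library of a group. The adipocyte and endothelial lists were also lowest in the first rebamipide library. The part of these cell types in the higher level of the 5 genes was not tested.

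Cpt1a and the mean of the 7 growing hair follicle markers had the same order of libraries within each group. The hair follicle list had a mean log2 CPM of 9.94, 8.55 and 3.47 in the vehicle libraries and 5.43, -3.52 and -4.25 in the rebamipide libraries, where 4 markers of the second and 7 of the third library were at 0 and -4.25 stands for 0 counts. Basal keratinocyte markers stood at 8.33, 9.06 and 8.83 with vehicle and at 7.41, 6.68 and -0.97 with rebamipide. Suprabasal markers stood at 7.29, 9.33 and 9.61 with vehicle and at 7.53, 7.06 and -1.28 with rebamipide. Within the vehicle group both keratinocyte lists were lowest in the first library, where Cpt1a was highest. Cpt1a was still read at 3.50 FPKM in the third rebamipide library. The part of epidermis and hair follicles in the Cpt1a values was not tested.

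**Figure D5:**
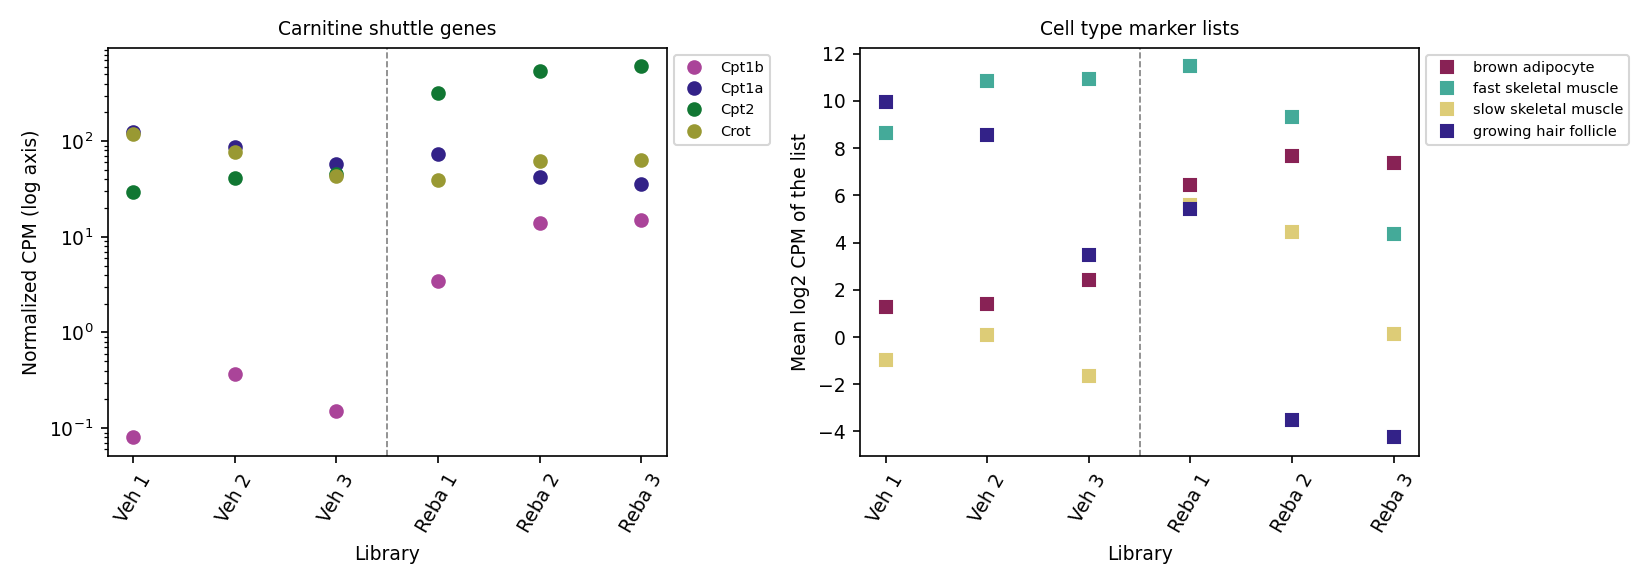
Left, normalized CPM of Cpt1b, Cpt1a, Cpt2 and Crot in each library on a log axis. Right, mean log2 CPM of 4 marker lists in the same libraries, where fast skeletal muscle falls to 4.35 in the third rebamipide library while Cpt1b is at its highest, and growing hair follicle markers range from 9.94 to -4.25.

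Across the 6 libraries, the genes with log2 CPM most like that of Cpt1b were Dnpep and Zdhhc4 (Pearson r = 0.998 each), Abca7 (r = 0.998), Chrna2 and Dusp4 (r = 0.997 each), among 13378 genes with a mean of at least 50 counts. The genes most like Cpt1a were Pik3c2b (r = 0.999), Prrc2b (r = 0.998), Krt90, a keratin, Lef1, a hair follicle transcription factor of Wnt signalling (r = 0.996 each), and Pmel, a melanosome protein (r = 0.995). The libraries share 2 groups that lie apart, and 2417 genes reached an r over 0.9 with Cpt1b and 1263 with Cpt1a, so that an r of this size was common.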

How the data were processed

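Poly-A RNA of dorsal skin from 3 vehicle and 3 rebamipide mice was sequenced. The read counts deposited by the authors are whole numbers per gene without normalization. FPKM as deposited equal each count over its gene's length and over the library total. The submitters' processing notes name fastp 0.22.0, HISAT2 2.1.0, HTSeq 0.9.1 and the GRCm39 build, and the counting mode is not given in the sources used here. Each of the 12 per-sample columns carried the name of 1 sample. The annotation columns for GO and KEGG were not used. Labels give no batch.

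The test between groups was edgeR 4.0.16 under R 4.3.3 (TMM factors, filterByExpr, quasi-likelihood, Benjamini-Hochberg over 14875 genes). TMM factors were 1.21 to 1.279 in the vehicle group and 0.746 to 0.929 in the rebamipide group. DESeq2 1.42.0, limma 3.58.1 (voom, and log2(FPKM + 1) or log2(FPKM + 0.1)), other scalings and filters, a replicate block, a muscle covariate and each library left out in turn served as alternatives. DESeq2 with each library left out and the length of Cpt1b outside Gm44502 were added after the data were seen. Within each group replicates differed by more than sampling noise. A count of 0 allows up to 3 counts, and such limits cover counting error only.

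The 8 genes and all gene lists were chosen with earlier results of these data known. Genes named are these 8, of each list the 5 genes of smallest p-value and the 3 of highest mean FPKM, the 5 genes most correlated with Cpt1b and with Cpt1a, and genes overlapping the 8. Acad9, Slc22a16, Chkb, Zic1, Lep and Retn were named after their values were seen. Overlaps were counted in GENCODE M21 (GRCm38) as base counts only, and its coordinates were not mixed with those of the table. Tmlhe and Krt85 were not analysed here.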

Additional observations from a re-analysis of the deposited data

How the results depend on the processing

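The number of carnitine shuttle genes called higher was 5 in edgeR under other scalings, limma-voom, DESeq2, both FPKM fits, no filter and the muscle covariate, and 4 of the 7 genes tested with at least 10 counts in every sample, which removes Cpt1b. With each library left out it was 0 to 5, and the 0 came without the second vehicle library (smallest adjusted p over all genes 0.0747, 4116 genes at an unadjusted p under 0.05) and without the second rebamipide library (1 gene called over all genes, 4062 at an unadjusted p under 0.05). DESeq2 without any 1 library called 5. The cause was not tested.

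The number called lower, 0 in edgeR, was 1 with total counts alone, 1 in DESeq2, 2 with log2(FPKM + 1) and 2 with log2(FPKM + 0.1), and 0 to 2 with each library left out, above 0 in edgeR only without the first rebamipide library. Over all genes, 3752, 4809 and 4777 of 14875 were lower with total counts alone, log2(FPKM + 1) and log2(FPKM + 0.1), and 15.5% in DESeq2. Without the first rebamipide library edgeR called 1971 of 15345 genes lower and DESeq2 4251 of 17765. The number lower by the study's thresholds, 1, was 3 with total counts alone, 0 with the muscle covariate, 3 with log2(FPKM + 0.1) and 0 to 2 with each library left out, the 0 in edgeR being without the first or the second vehicle or the second or the third rebamipide library (the 1 without the third vehicle library is Cpt1a, not Cpt1c). Pathway genes called lower, 1, were 5 with total counts alone, 0 with the muscle covariate, 9 with log2(FPKM + 1), 5 with log2(FPKM + 0.1) and 0 to 4 with each library left out (0 in edgeR without the second or the third library of either group), and pathway genes called higher, 35, were 0 to 38 in edgeR and 34 to 40 in DESeq2 with each library left out, the 0 being without the second vehicle or the second rebamipide library. The difference between groups in the Cpt1b share of the CPT1 sum, 32.3 percentage points, was 63.1 per base outside Gm44502 and 24.9 to 44.1 with each library left out.

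Replicate numbers are shared by the groups, and the labels do not state a pairing. The deviations of same-numbered libraries correlated by -0.0382 to 0.00316, and those of differently numbered libraries by -0.323 to 0.379. With 3 libraries per group these values cannot decide whether the numbers pair the samples. With the replicate number as a block, 5 genes were called higher, 0 passed the study's thresholds as lower, and 1432 genes were higher and 855 lower over all genes. No fold change of the 8 genes and no group difference in the ratio of Cpt1a to Cpt1b or in the Cpt1b share changed sign under the alternatives run, whereas the mean summed CPT1 FPKM, 15.6 with vehicle and 8.25 with rebamipide, was 15.9 and 19.0 with Cpt1b per base outside Gm44502. Over alternatives with all libraries the log2 fold change of Cpt1b ranged from 1.60 to 5.77, and its vehicle level is limited by 4 to 18 reads per library.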
